A study of Mus musculus with 28 samples.

Results

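The transcriptional response of macrophages to bacterial lipopolysaccharide (LPS) was compared between 16 h and 3.5 h of exposure. The comparison rests on 8 of the 28 cultures that were sequenced, 4 at each time, and on all genes of the deposited count table. The cells were bone marrow-derived macrophages (BMDMs), grown from mouse bone marrow precursors with the growth factor M-CSF, and per the study's methods the marrow came from C57/B6JB mice. LPS was given at 100 ng/ml in fresh medium with calcium chloride, and the same medium was used for the 10 control cultures, which received PBS, and for the 10 cultures that received 10 µg/ml of plasma-derived von Willebrand factor (pd-VWF). Control and pd-VWF cultures were also collected at 3.5 h and 16 h, 5 at each time. The labels number the cultures as biological replicates without saying whether these came from separate mice, so that p values measure the spread between these cultures.

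LPS is recognised on macrophages by Toll-like receptor 4 (TLR4) with its partners MD-2 and CD14. The adaptor MyD88 leads from the receptor to NF-kB and MAP kinases and to fast transcription of cytokine and chemokine genes, while the adaptor TRIF leads to IRF3 and to interferon-beta. Secreted interferon-beta then acts back on the cells through their interferon receptor. Macrophages also switch on inhibitors of the pathway, among them A20, SOCS proteins, IL-10 and the interleukin-1 receptor antagonist, and over hours they raise glycolysis and the production of nitric oxide.

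The annotated promoters of 3 genes with large and opposite changes are shown here because they hold letters that match binding motifs of this pathway. Each window runs from 250 bases before to 50 bases after the start site that RefSeq annotates on GRCm38.p6, is written 5′ to 3′ on the strand of the gene, and has motif matches in capitals. Ifnb1, which encodes interferon-beta, and Cxcl10, a chemokine induced by interferon and NF-kB, were among the genes that fell most in counts or in fold, and Saa3, an acute phase protein of macrophages, was among those that rose most. The Ifnb1 window (chr4:88522745-88523044, minus strand) holds a match to the NF-kB consensus from -116 to -107 relative to the start site. The Cxcl10 window (chr5:92348840-92349139, minus strand) holds a core of the interferon-stimulated response element (ISRE, GAAANNGAA) from -213 to -205, matches to the NF-kB consensus from -159 to -150 and from -103 to -94, and an AP-1 site (TGANTCA) from -74 to -68. The Saa3 window (chr7:46715627-46715926, minus strand) holds an ISRE core from -125 to -117.
Ifnb1: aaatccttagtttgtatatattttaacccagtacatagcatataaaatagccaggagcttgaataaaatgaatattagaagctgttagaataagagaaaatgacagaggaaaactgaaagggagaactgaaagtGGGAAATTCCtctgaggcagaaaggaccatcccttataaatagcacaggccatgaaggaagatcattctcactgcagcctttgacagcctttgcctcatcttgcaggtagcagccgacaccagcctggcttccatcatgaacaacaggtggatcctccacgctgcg
Cxcl10: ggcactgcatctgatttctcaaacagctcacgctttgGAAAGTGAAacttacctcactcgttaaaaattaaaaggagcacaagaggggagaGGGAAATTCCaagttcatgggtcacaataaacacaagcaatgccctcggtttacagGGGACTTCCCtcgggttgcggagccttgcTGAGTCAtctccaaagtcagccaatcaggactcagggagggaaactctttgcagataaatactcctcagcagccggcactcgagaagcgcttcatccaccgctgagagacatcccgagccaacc
Saa3: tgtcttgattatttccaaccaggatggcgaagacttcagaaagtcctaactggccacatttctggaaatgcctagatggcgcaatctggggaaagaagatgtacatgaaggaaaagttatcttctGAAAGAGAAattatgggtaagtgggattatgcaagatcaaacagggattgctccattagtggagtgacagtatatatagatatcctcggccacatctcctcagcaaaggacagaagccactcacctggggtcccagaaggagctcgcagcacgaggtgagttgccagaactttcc

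The LPS cultures had total counts between 46387725 and 66425251, within the range of 41131209 to 77699206 over all 28. One of them stood apart. Replicate 4 at 16 h correlated with the other 16 h cultures at a Spearman's correlation of 0.911 to 0.958 across genes, where the other 3 reached 0.989 among themselves, and it had counts on 16011 genes against 19029 to 19485. Its deviation from the other 3 cultures ran with the length of the genes, at a median of 0.521 (log2) over 871 genes under 1500 exon bases and of -0.271 over 2259 genes above 5000 bases. Replicates 1 and 3 at 16 h showed the opposite slope, with -0.281 and -0.318 for the short genes. The part of gene length in the results was not tested beyond leaving this culture out and removing each culture's length trend, and the counts or values without it are given beside the counts by list that it changed. Macrophage markers were high throughout: all 10 markers listed for this cell type were detected, and their summed level was 9936.6 to 16514.4 CPM (counts scaled to library size) at 3.5 h and 10954.0 to 16371.4 CPM at 16 h. Summed markers of neutrophils (11.7 to 32.2 CPM at 3.5 h, 12.9 to 35.6 CPM at 16 h) and of dendritic cells (21.9 to 27.2 and 14.7 to 31.3 CPM) were low at both times, and Ly6g and Elane were at 0 in all 4 cultures at 16 h. Markers of erythroid cells and megakaryocytes summed to 976 to 1287.8 CPM at 3.5 h and 277 to 595 CPM at 16 h. The dendritic cell sum of control cultures was 1.4 to 2.05 CPM at 3.5 h and 0.696 to 2.1 CPM at 16 h. The part of these cells in the results was not tested. In bulk RNA, fewer cells that express a gene and less RNA per cell cannot be told apart.

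**Figure D1:**
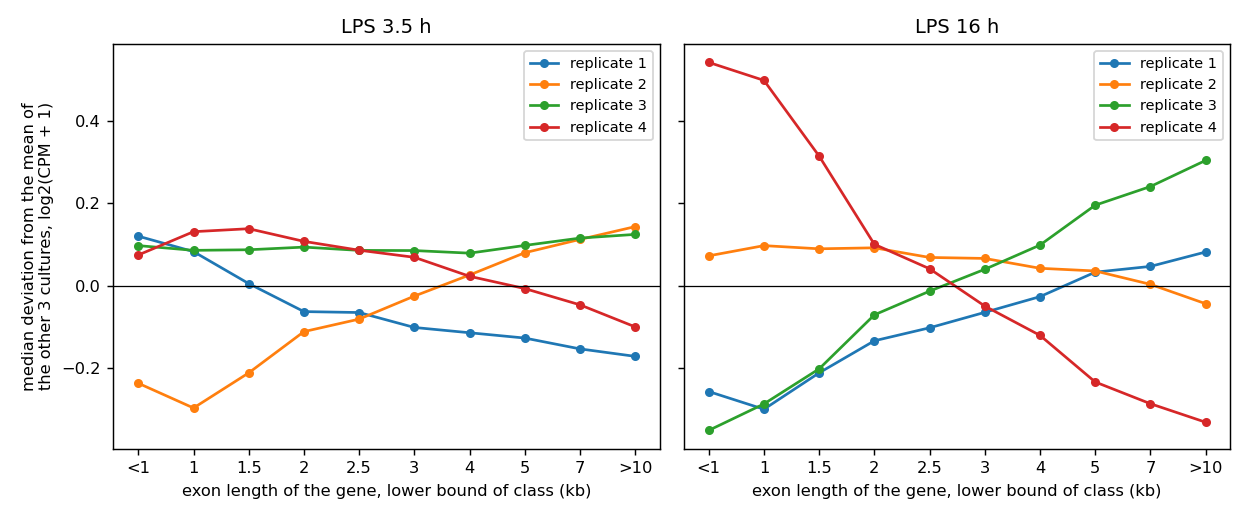
Median deviation of each LPS culture from the mean of the other 3 cultures of its group, in log2(CPM + 1), by class of exon length in kb, at 3.5 h (left) and 16 h (right). Replicate 4 at 16 h lies above the others for short genes and below them for long genes, and the 3.5 h cultures differ less.

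Expression was measured as counts per gene. Genes that reached 10 TPM (length-scaled transcript abundance) in at least 1 of the 8 cultures entered edgeR's quasi-likelihood test with TMM scaling. A gene was called at a Benjamini-Hochberg adjusted p under 0.05 with an absolute log2 fold change above 1. Of 6987 genes tested, 1023 were higher at 16 h (14.6%) and 941 were lower (13.5%). Called genes had a median absolute log2 fold change of 1.51, and 47 genes rose and 36 fell by more than 4 on the log2 scale. The 4 cultures at 16 h did not overlap with the 4 at 3.5 h for 1863 of the 1964 called genes (94.9%), against 3800 of all tested genes (54.4%). Without replicate 4 at 16 h, 1057 genes were higher and 1041 lower of 6945 tested, and 1829 of the 1964 genes were called again in the same direction with 0 in the opposite one. In the 10 control cultures, which received PBS for the same times, 333 of 8333 genes were higher at 16 h (4%) and 424 lower (5.09%). Levels below are CPM scaled by TMM factors over all 28 cultures, listed for replicates 1 to 4 or as mean ± SD of 4 LPS or 5 control cultures. Fold changes are log2(16 h / 3.5 h) from the edgeR fit, given ± their standard error, and adjusted p values come from that fit.

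**Figure D2:**
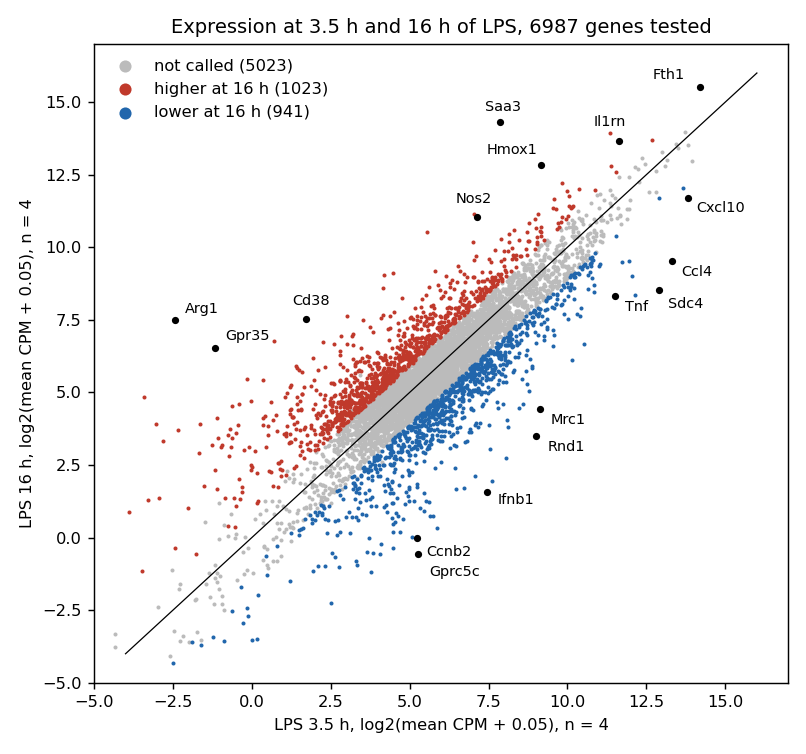
Mean level of each of the 6987 tested genes at 3.5 h (x axis) and 16 h (y axis) of LPS, both as log2(CPM + 0.05) of 4 cultures; 1023 genes called higher at 16 h are red, 941 called lower are blue, and named genes are marked in black. Ifnb1, Rnd1 and Ccnb2 lie far below the line of equal levels and Arg1, Gpr35 and Saa3 far above it.

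The genes with the highest levels changed place. Per length, the leading genes at 3.5 h were Ccl4 (30589 TPM), the gene model Gm23935 (17284 TPM), which is annotated as a miRNA, Ftl1 (17173 TPM) and Apoe (14552 TPM), with Cxcl10 (12665 TPM) and Ccl3 (10864 TPM) among the first 10. At 16 h they were Fth1 (28236 TPM), B2m (20890.0 TPM) and Spp1 (19361 TPM), and Saa3 (15555 TPM) and Ccl5 (15464 TPM) were among the first 10. At 16 h, Ccl4 was at 2242 TPM and Ccl3 at 1415 TPM.

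Cytokine genes were lower at 16 h in most cases. Tnf, the gene of tumour necrosis factor, was measured at 2991, 2739, 2891 and 2919 CPM at 3.5 h and 288, 256, 338 and 390.2 CPM at 16 h. Every culture at 16 h was below every culture at 3.5 h (log2 fold change -3.12 ± 0.16, adjusted p = 9.37e-07), and control cultures, at 128 ± 20.4 CPM at 3.5 h and 25.4 ± 4.23 CPM at 16 h, also fell over the same time (log2 fold change -2.28). Il6, a cytokine of the acute phase response, lay at 535, 311, 483 and 544 CPM at 3.5 h and 70.6, 55, 38.3 and 78.4 CPM at 16 h. Il6 fell by 2.87 ± 0.28 on the log2 scale (adjusted p = 2.87e-05). Controls held 0.121 ± 0.0378 CPM at 3.5 h and 0.0649 ± 0.145 CPM at 16 h. The time groups of Il6 were again separate, and the level at 16 h was still far above that of controls. Ifnb1 had a larger fall: it was at 223, 193, 111 and 166 CPM at 3.5 h and 2.54, 3.6, 1.41 and 4.18 CPM at 16 h. Ifnb1 fell by 5.82 ± 0.41 on the log2 scale (adjusted p = 4.59e-06). In controls it held 0.0408 ± 0.054 CPM at 3.5 h and 0.00809 ± 0.00763 CPM at 16 h. Il27, whose product pairs with EBI3 to form interleukin-27, fell from 1137 ± 187 to 68.8 ± 18 CPM (log2 fold change -3.97). Its partner Ebi3 moved the other way, from 106 ± 8.04 to 204 ± 18.6 CPM (log2 fold change 1.00 ± 0.09, adjusted p = 1.36e-05), a change at the threshold, whose call was lost with DESeq2, with library size or median-of-ratios scaling, with either other filter, with all 28 cultures in one fit, with the replicate block and in the test against a fold of 2. It was also lost without replicate 1 or 2 at 3.5 h and without replicate 2 or 4 at 16 h (log2 fold change of Ebi3 0.97, 0.99, 0.96 and 0.99). Tnfsf9, the ligand of the costimulatory receptor 4-1BB, fell from 279 ± 42.6 to 14 ± 5.26 CPM.

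The interleukin-1 genes changed less than Tnf and Il6, and Il1b was not called. Il1b was at 944, 1087, 1734 and 1651 CPM at 3.5 h and 1109.9, 1059, 1050.1 and 1394 CPM at 16 h, and its times overlapped (log2 fold change -0.15 ± 0.20, adjusted p = 0.533). Il1a was at 261, 508, 626 and 543 CPM at 3.5 h and 279, 197, 289 and 109 CPM at 16 h. Il1a fell by 1.08 ± 0.33 on the log2 scale (adjusted p = 0.0208). This call was lost without replicate 3 or 4 at 3.5 h and without replicate 2 or 4 at 16 h (log2 fold change of Il1a -0.95, -1.03, -1.02 and -0.85). Il12b, a subunit of interleukin-12 and interleukin-23, fell from 39.3 ± 12.1 to 9.5 ± 7.26 CPM (log2 fold change -1.99 ± 0.60, adjusted p = 0.0181), with only 1.49 CPM in replicate 4 at 16 h, a value of -1.62 without it, and a call that was lost without replicate 2 at 16 h (log2 fold change of Il12b -1.86). Of the 19 cytokine genes listed, 14 passed the expression filter, 9 were called lower (64.3%) and 1, Ebi3, higher (7.14%), at a median log2 fold change of -1.67 against 0.04 over all tested genes. Without replicate 4 at 16 h, 7 were lower and 0 higher, at a median of -1.48. Controls had 3 of 9 tested cytokine genes lower and 2 higher, at a median of -0.21. The difference of the time changes, LPS minus control, was called lower for 4 of 14 and higher for 2, at a median of -1.35. At 16 h, 13 of the 14 had LPS cultures all above the 5 control cultures, where 30.1% of all tested genes did. A gene that passed the filter only through the time at which it was high had to differ, so that this and the later counts by list are descriptions.

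Chemokine genes split. Ccl4, a chemokine made by activated macrophages, had the largest loss of any gene after Cxcl10 in CPM: it was at 11289, 8069, 10713 and 10500.0 CPM at 3.5 h and 643, 732, 403 and 1152 CPM at 16 h. Ccl4 fell by 3.72 ± 0.33 on the log2 scale (adjusted p = 1.63e-05). Ccl3, which is closely related to it, was at 3588, 3771, 4727 and 4643 CPM at 3.5 h and 603, 546, 391 and 536 CPM at 16 h. Ccl3 fell by 2.94 ± 0.17 on the log2 scale (adjusted p = 1.95e-06). Neither had overlapping cultures. Cxcl10, which attracts T cells through CXCR3 and whose promoter is printed above, was at 12811, 13161, 16672 and 14621 CPM at 3.5 h and 3306, 3689, 2894 and 3375 CPM at 16 h. Cxcl10 fell by 2.04 ± 0.12 on the log2 scale (adjusted p = 2.14e-06). Cxcl10 also fell in controls (log2 fold change -3.32), where it was at 7.05 ± 3.65 CPM at 3.5 h and 0.684 ± 0.0966 CPM at 16 h, and the difference of the time changes, LPS minus control, was 1.28 ± 0.43, adjusted p = 0.0213. The neutrophil attractants Cxcl1 (-2.08) and Cxcl2 (-1.36) and the CCR4 ligands Ccl17 (-2.60) and Ccl22 (-2.76) were lower as well on the log2 scale, and Ccl17, for which replicate 4 was the highest 16 h culture, was at -3.54 without it. Ccl5, which attracts T cells and monocytes, went the other way, at 2265, 2388, 3079 and 2902 CPM at 3.5 h and 6558, 8101, 6562 and 7273 CPM at 16 h. Ccl5 rose by 1.49 ± 0.12 on the log2 scale (adjusted p = 1.03e-05). Controls held 2.24 ± 0.848 CPM at 3.5 h and 2.35 ± 0.523 CPM at 16 h. Ccl2, which attracts monocytes, was at 2805, 1985, 1657 and 2152 CPM at 3.5 h and 1886, 2200.3, 1543 and 3099 CPM at 16 h with overlapping cultures (log2 fold change 0.08 ± 0.26, adjusted p = 0.8). Cxcl9, a CXCR3 ligand induced by interferon-gamma, went from 295 ± 41.4 to 292 ± 74.6 CPM (log2 fold change 0.05 ± 0.17, adjusted p = 0.831). In all, 7 of 20 tested chemokine genes were called lower (35%) and 3 higher (15%), against 13.5% and 14.6% of all tested genes. Without replicate 4 at 16 h, 7 were lower and 2 higher. The count of higher genes was 1 with all 28 cultures in one fit and in the test against a fold of 2.

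**Figure D3:**
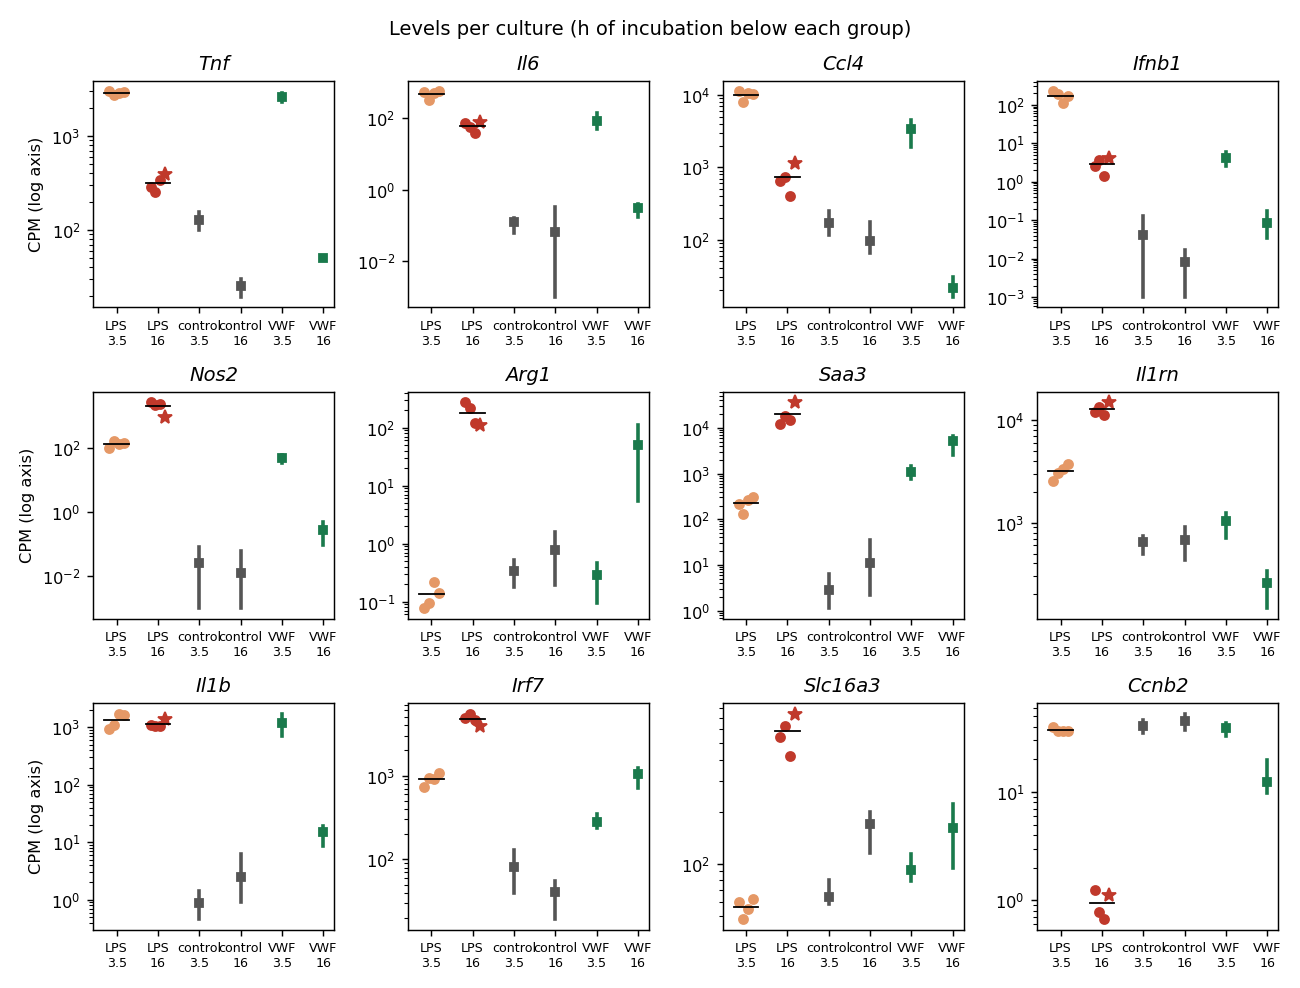
Levels of 12 genes in CPM on a log axis. Circles and stars are single LPS cultures, with a star for replicate 4 at 16 h and a line for the mean of 4; squares and bars are the mean and range of 5 control (grey) or 5 pd-VWF (green) cultures, and values of 0 are drawn at the foot at 0.001 CPM. Tnf, Il6, Ccl4, Ifnb1 and Ccnb2 are lower at 16 h of LPS than at 3.5 h, Nos2, Arg1, Saa3, Il1rn, Irf7 and Slc16a3 are higher, and Il1b overlaps.

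Genes of NF-kB itself were lower at 16 h or were not called. Of 16 subunits and inhibitors, all tested, 9 were called lower (56.2%), 0 were called higher, and the median log2 fold change was -1.15. Leaving out replicate 4 at 16 h gave 9 lower and 0 higher. Controls had 5 of the 16 called lower and 0 higher, at a median of -0.75. The difference of the time changes, LPS minus control, was called lower for 4 of 16 and higher for 0, at a median of -0.26. Nfkb1, which encodes the p105 precursor of p50, fell from 660.0 ± 73 to 147 ± 32.4 CPM (log2 fold change -2.10 ± 0.17, adjusted p = 1.03e-05), and Rel fell from 202 ± 15.6 to 54 ± 5.81 CPM. Among the inhibitors, Nfkbia (I-kappa-B alpha) was at 1292, 1783, 1728 and 1689 CPM at 3.5 h and 574, 525, 611 and 399.5 CPM at 16 h. Nfkbia fell by 1.56 ± 0.15 on the log2 scale (adjusted p = 3.03e-05). Tnfaip3, which encodes A20, was at 1091, 1592, 1405 and 1259 CPM at 3.5 h and 239, 183, 230.0 and 134 CPM at 16 h. Tnfaip3 fell by 2.70 ± 0.21 on the log2 scale (adjusted p = 7.63e-06). Both sets of cultures were separate, and both genes also fell in controls, with log2 fold changes of -2.15 and -2.43. Nfkbiz, an atypical I-kappa-B that acts in the nucleus, fell from 411 ± 64.8 to 52.7 ± 13.4 CPM (log2 fold change -2.89 ± 0.20, adjusted p = 4.59e-06). In 15 of the 16 genes the LPS cultures at 16 h lay above all control cultures, as in 30.1% of all tested genes.

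Inhibitors of signalling fell into 2 groups. Il10, an anti-inflammatory cytokine, was at 318, 357, 359 and 474 CPM at 3.5 h and 47.2, 44.4, 30.7 and 55.5 CPM at 16 h. Il10 fell by 3.01 ± 0.21 on the log2 scale (adjusted p = 4.68e-06). Socs1 fell from 748 ± 128 to 96.7 ± 13 CPM, Socs3 from 1771 ± 425 to 495 ± 136 CPM and Cish, of the same family of suppressors of cytokine signalling, from 107 ± 29.7 to 3.24 ± 1.37 CPM (log2 fold changes -2.88, -1.77 and -4.96). Dusp2, a MAP kinase phosphatase, fell from 442 ± 30.6 to 33 ± 4.46 CPM. The second group rose. Il1rn, the interleukin-1 receptor antagonist, was at 2569, 3047, 3364 and 3719.5 CPM at 3.5 h and 12159, 13441, 11357 and 14927 CPM at 16 h, with no overlap. Il1rn rose by 2.10 ± 0.14 on the log2 scale (adjusted p = 3.7e-06). Controls showed 649.8 ± 94.3 CPM at 3.5 h and 673 ± 179 CPM at 16 h. Dusp1, another MAP kinase phosphatase, was at 242, 299.8, 222 and 259 CPM at 3.5 h and 665, 698, 642 and 636 CPM at 16 h. Dusp1 rose by 1.43 ± 0.12 on the log2 scale (adjusted p = 1.34e-05). In controls it fell by 1.36, and the difference of the time changes was 2.80 ± 0.21, adjusted p = 1.44e-08. Irak3, which encodes the kinase-dead inhibitor IRAK-M, rose from 23.2 ± 3.11 to 72.4 ± 17.4 CPM (log2 fold change 1.71 ± 0.18, adjusted p = 4.12e-05). Of 20 tested inhibitor genes 7 were higher (35%) and 6 lower (30%), and the counts were 7 and 6 without replicate 4 at 16 h. Controls had 8 of 17 tested inhibitor genes lower and 0 higher, at a median of -0.91. The difference of the time changes, LPS minus control, was called higher for 8 of 21 and lower for 5, at a median of 0.64.

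Genes of the receptor complex were mostly not called. Tlr4 was at 16.1, 25.7, 21.7 and 25.2 CPM at 3.5 h and 53.3, 53.5, 54.6 and 35.1 CPM at 16 h, without overlap of the times. Tlr4 rose by 1.21 ± 0.18 on the log2 scale (adjusted p = 0.000439). Cd14 went from 1964 ± 289.8 to 3575 ± 555 CPM, under the fold threshold (log2 fold change 0.94 ± 0.15, adjusted p = 0.000574). The kinase gene Map3k8 (TPL2), which links TLR signals to ERK, was the only one of the 17 tested complex, adaptor and kinase genes that was called lower, from 117 ± 15.3 to 30.8 ± 3.17 CPM. Tlr2, the receptor of bacterial lipopeptides, was at 1396, 1464, 1629 and 1389 CPM at 3.5 h and 102, 98, 116 and 91.5 CPM at 16 h. Tlr2 fell by 3.78 ± 0.11 on the log2 scale (adjusted p = 1.01e-07). It fell in controls as well (-2.34), with a difference of -1.44 ± 0.20, adjusted p = 1.14e-05. Of the other TLR genes, Tlr1 (1.30) and Tlr13 (1.51), a sensor of bacterial ribosomal RNA, were called higher. Tlr9, a sensor of DNA, was at 1.76, 6.3, 3.11 and 3.85 CPM at 3.5 h and 30.6, 14.2, 38.3 and 2.14 CPM at 16 h. Tlr9 rose by 2.56 ± 0.76 on the log2 scale (adjusted p = 0.0171). The 3.5 h range of Tlr9 held replicate 4 at 16 h, and the value without it was 2.94. Tlr8 had the same layout, with 1.59 CPM in replicate 4 and 68.6, 31.1 and 91.1 CPM in the others at 16 h, and was called only without replicate 4 (2.64, against 2.23 with all cultures).

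Interferon-stimulated genes stayed above controls at both times. All 35 genes of the list were tested, and in all 35 the LPS cultures lay above all control cultures at both times, where 32.8% of all tested genes did at 3.5 h and 30.1% at 16 h. Between the times 8 were called higher (22.9%) and 5 lower (14.3%), at a median log2 fold change of 0.24, and without replicate 4 at 16 h the counts were 8 and 4. Ifit1, which binds RNA without a self cap, was at 14357, 9797, 14740.0 and 13296 CPM at 3.5 h and 3181, 3606, 3030.5 and 6976 CPM at 16 h. Ifit1 fell by 1.56 ± 0.29 on the log2 scale (adjusted p = 0.00151). Ifih1, which encodes the RNA sensor MDA5, fell from 1836 ± 242 to 418 ± 54.3 CPM (log2 fold change -2.07 ± 0.14, adjusted p = 3.42e-06). Irf7, the transcription factor that carries the late phase of interferon induction, was at 723, 945, 917 and 1087 CPM at 3.5 h and 4869.5, 5479.5, 4641 and 3860.1 CPM at 16 h. Irf7 rose by 2.43 ± 0.15 on the log2 scale (adjusted p = 2.44e-06). Irf7 did not overlap between the times, and controls were at 81.6 ± 40.8 CPM at 3.5 h and 41.3 ± 15 CPM at 16 h. Ifi44 rose from 78 ± 7.83 to 437 ± 8.94 CPM, Isg20, an RNA exonuclease, from 114 ± 29 to 508 ± 101 CPM, and Bst2, which tethers budding viruses, from 1007 ± 189 to 3876 ± 1838 CPM, with 6533 CPM in replicate 4 at 16 h. Stat2, a transcription factor of interferon signalling, rose by 1.23 on the log2 scale, and its cultures overlapped. Rsad2, the gene of viperin, was at 11924, 14949, 15683 and 15100.0 CPM at 3.5 h and 12893, 12280.0, 11980.0 and 9734 CPM at 16 h (log2 fold change -0.23 ± 0.13, adjusted p = 0.146). Ifit2 went from 4948 ± 883 to 4854 ± 906 CPM. Mx1 was at 889, 1821, 1355 and 1131 CPM at 3.5 h and 1839.5, 1602, 1933 and 569 CPM at 16 h. Mx1 was not called, at a log2 fold change of 0.25 ± 0.37 (adjusted p = 0.574). These 3 overlapped between the times and were not called.

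Antigen presentation genes of class I were higher at 16 h in part. H2-K1 was at 2659.8, 3126, 3079 and 3137 CPM at 3.5 h and 6617, 6962, 5899.9 and 5312 CPM at 16 h. H2-K1 rose by 1.11 ± 0.12 on the log2 scale (adjusted p = 4.5e-05). H2-Q7, a class Ib gene, rose from 80.7 ± 12.9 to 467 ± 88.4 CPM (log2 fold change 2.60 ± 0.17, adjusted p = 3.42e-06). Of 17 class I genes, 7 were called higher (41.2%) and 0 lower. That number was 4 without replicate 4 at 16 h, since the proteasome genes Psmb8, Psme1 and Psme2 were then at 0.81, 0.90 and 0.69 on the log2 scale (against 1.09, 1.05 and 1.03). All 3 also lost their call without replicate 2 at 3.5 h (log2 fold change of Psmb8 1.00, of Psme1 0.98 and of Psme2 0.91). B2m, the shared light chain, did not reach the fold threshold (log2 fold change 0.78 ± 0.10, adjusted p = 0.000168). None of 7 tested class II genes was called, and H2-Aa went from 61.4 ± 21 to 59.7 ± 7.87 CPM (log2 fold change 0.04 ± 0.24, adjusted p = 0.897). Among costimulatory molecules, Cd40 fell from 1663 ± 318 to 564 ± 54.5 CPM and Cd83, a marker of dendritic cell maturation, from 469 ± 53.3 to 57.6 ± 12 CPM. Cd38, an ectoenzyme that consumes NAD, was at 3.65, 3.46, 3.25 and 2.7 CPM at 3.5 h and 144, 179, 169 and 243 CPM at 16 h, with no overlap. Cd38 rose by 5.87 ± 0.22 on the log2 scale (adjusted p = 2.98e-07). Of 12 tested costimulation and checkpoint genes 6 were lower (50%) and 1, Cd38, was higher (8.33%). Without replicate 4 at 16 h, Cd274 (PD-L1, 1.02 against 0.86) and Slamf7 (1.18 against 1.00) were called higher as well.

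Of 10 tested genes of arginine, nitric oxide and itaconate metabolism 4 were higher (40%) and 1 lower (10%), and without replicate 4 at 16 h 4 were higher and 2 lower. Nos2, the inducible nitric oxide synthase, was at 106, 168, 139.6 and 153 CPM at 3.5 h and 2741, 2275, 2432 and 986 CPM at 16 h, with no overlap. Nos2 rose by 3.96 ± 0.33 on the log2 scale (adjusted p = 1.11e-05). Replicate 4 at 16 h had the lowest of the 16 h values, the log2 fold change without it was 4.20, and controls held 9 and 4 counts over 5 cultures at 3.5 h and 16 h. Arg1, which uses the same substrate arginine to make urea and ornithine, had the largest log2 fold change of all genes and was at 0.0765, 0.0961, 0.22 and 0.141 CPM at 3.5 h and 271, 216, 118 and 112 CPM at 16 h. Arg1 rose by 10.45 ± 0.50 on the log2 scale (adjusted p = 7.75e-07). At 3.5 h the 4 cultures together held 20 counts on Arg1, where the controls were at 0.337 ± 0.169 CPM. Ass1, which regenerates arginine from citrulline, rose from 62.5 ± 21.1 to 367 ± 76.4 CPM (log2 fold change 2.62 ± 0.25, adjusted p = 2.79e-05), with 26.9% of its sequence windows shared with Gm5424. Acod1, whose product makes itaconate, was at 2791, 4003, 4794 and 4335 CPM at 3.5 h and 5673, 5502, 7056 and 3556 CPM at 16 h and was not called (log2 fold change 0.52 ± 0.21, adjusted p = 0.0607). Odc1, which leads from ornithine to polyamines, fell from 657 ± 74.7 to 154 ± 28.2 CPM. Saa3 was at 218, 131, 267 and 314 CPM at 3.5 h and 11984, 18175, 14751 and 36201 CPM at 16 h. Saa3 rose by 6.53 ± 0.48 on the log2 scale (adjusted p = 5.92e-06). The 16 h cultures of Saa3 ranged over a wide span with replicate 4 the highest, the log2 fold change without it was 6.07, and controls were at 2.84 ± 2.15 CPM at 3.5 h and 11 ± 13.2 CPM at 16 h. Lcn2, which binds bacterial iron carriers, was at 16.6, 16.3, 25.7 and 29 CPM at 3.5 h and 456, 580.5, 669 and 526 CPM at 16 h, without overlap. Lcn2 rose by 4.74 ± 0.22 on the log2 scale (adjusted p = 6.36e-07). Of 10 tested complement genes 2 were higher (20%) and 1 lower (10%). C3, the central complement protein, rose from 286 ± 63 to 1390.2 ± 554 CPM (log2 fold change 2.35 ± 0.33, adjusted p = 0.000278), and C5ar1, the receptor of the complement fragment C5a, fell from 1272 ± 109 to 207 ± 29.3 CPM. Cfb, complement factor B, was at 0.204, 0.625, 0.441 and 0.422 CPM at 3.5 h and 13, 8.61, 20.5 and 0.373 CPM at 16 h. Cfb rose by 4.69 ± 0.99 on the log2 scale (adjusted p = 0.00294). The 3.5 h range of Cfb held replicate 4 at 16 h, the value without it was 5.10, and 66.9% of its sequence windows are shared with Gm20547.

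Glycolysis was the list with the largest share of genes called higher. Of 18 tested genes 13 were higher (72.2%) and 2 lower (11.1%), at a median log2 fold change of 1.62, and the counts without replicate 4 at 16 h were 13 and 2. Slc16a3, which exports lactate, was at 60.3, 47.5, 54.3 and 62.4 CPM at 3.5 h and 545, 628, 418 and 739.5 CPM at 16 h. Slc16a3 rose by 3.44 ± 0.20 on the log2 scale (adjusted p = 2.1e-06). Pfkfb3, which makes the activator of phosphofructokinase, was at 92.1, 151, 159 and 147 CPM at 3.5 h and 973, 808, 913 and 592 CPM at 16 h. Pfkfb3 rose by 2.65 ± 0.21 on the log2 scale (adjusted p = 8.51e-06). Both were separate between the times. Ldha, lactate dehydrogenase A, rose from 764 ± 76.4 to 3271 ± 420.5 CPM, the glucose transporter Slc2a1 from 73.1 ± 15.6 to 200.2 ± 37 CPM, and Pfkl from 55.1 ± 9.44 to 238 ± 22.1 CPM. The hexokinase genes, of the first step, differed. Hk2 was at 151, 235, 200.2 and 198 CPM at 3.5 h and 61.6, 58, 67 and 34.9 CPM at 16 h. Hk2 fell by 1.76 ± 0.21 on the log2 scale (adjusted p = 9.78e-05). Hk3 rose from 526 ± 74.4 to 1119.5 ± 198 CPM and Hk1 was not called (0.24). The other called decrease was Slc16a1, a transporter for lactate and pyruvate, from 52.2 ± 3.18 to 19.2 ± 3.55 CPM. In controls, 6 of 19 list genes were higher and 2 lower, at a median of 0.73. The difference of the time changes, LPS minus control, was called higher for 7 of 19 genes and lower for 0. Ldha, Pfkl, Slc16a3, Pfkfb3 and Slc2a1 had differences of 1.20, 1.18, 1.99, 4.47 and 1.74 on the log2 scale. Pfkfb3 fell in controls (-1.81), while Pgk1 rose in both (1.87 with LPS and 1.38 in controls), with a difference of 0.49 that was not called and with 51.7% of its windows shared with other genes.

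Other genes that HIF-1 is known to induce were called higher or not called. Of 17 tested, 10 were called higher (58.8%) and 0 lower, at a median of 1.18, with 10 and 0 without replicate 4 at 16 h. Bnip3, a mitophagy receptor, was at 20.8, 19, 17.5 and 25.4 CPM at 3.5 h and 206, 234, 139.7 and 206 CPM at 16 h. Bnip3 rose by 3.32 ± 0.20 on the log2 scale (adjusted p = 2.35e-06). Egln3, an oxygen sensor that marks HIF proteins for decay, rose from 0.662 ± 0.21 to 12.2 ± 3.25 CPM, and Ankrd37 from 0.601 ± 0.20 to 10.9 ± 4.06 CPM. Vegfa was at 44.3, 40.6, 23.4 and 36.4 CPM at 3.5 h and 159, 128, 91.3 and 71.5 CPM at 16 h. Vegfa rose by 1.69 ± 0.30 on the log2 scale (adjusted p = 0.00113). It lay below all controls at 3.5 h and above them in mean at 16 h (156 ± 31.9 CPM at 3.5 h and 58.2 ± 17.7 CPM at 16 h), where 1 LPS culture lay below the highest control. The mitochondrial lists did not follow. Of 42 respiratory chain and ATP synthase genes, 1, Cycs, was called higher and 0 lower, at a median of 0.00 with all cultures and of -0.23 without replicate 4 at 16 h. Of 20 TCA cycle genes, 2 were lower, Idh2 from 48.6 ± 4.18 to 13.1 ± 1.75 CPM (log2 fold change -1.83 ± 0.13, adjusted p = 3.82e-06) and Idh3a from 36.9 ± 4.73 to 17.3 ± 1.51 CPM (log2 fold change -1.04 ± 0.13, adjusted p = 0.000116). Both enzymes convert isocitrate, neither was called in controls (0.24 and 0.18), and Idh3a lost its call without replicate 1 at 3.5 h (log2 fold change of Idh3a -0.93). Without replicate 4 at 16 h, 1 TCA cycle gene was called higher and 2 lower, against 0 and 2 with all cultures.

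**Figure D4:**
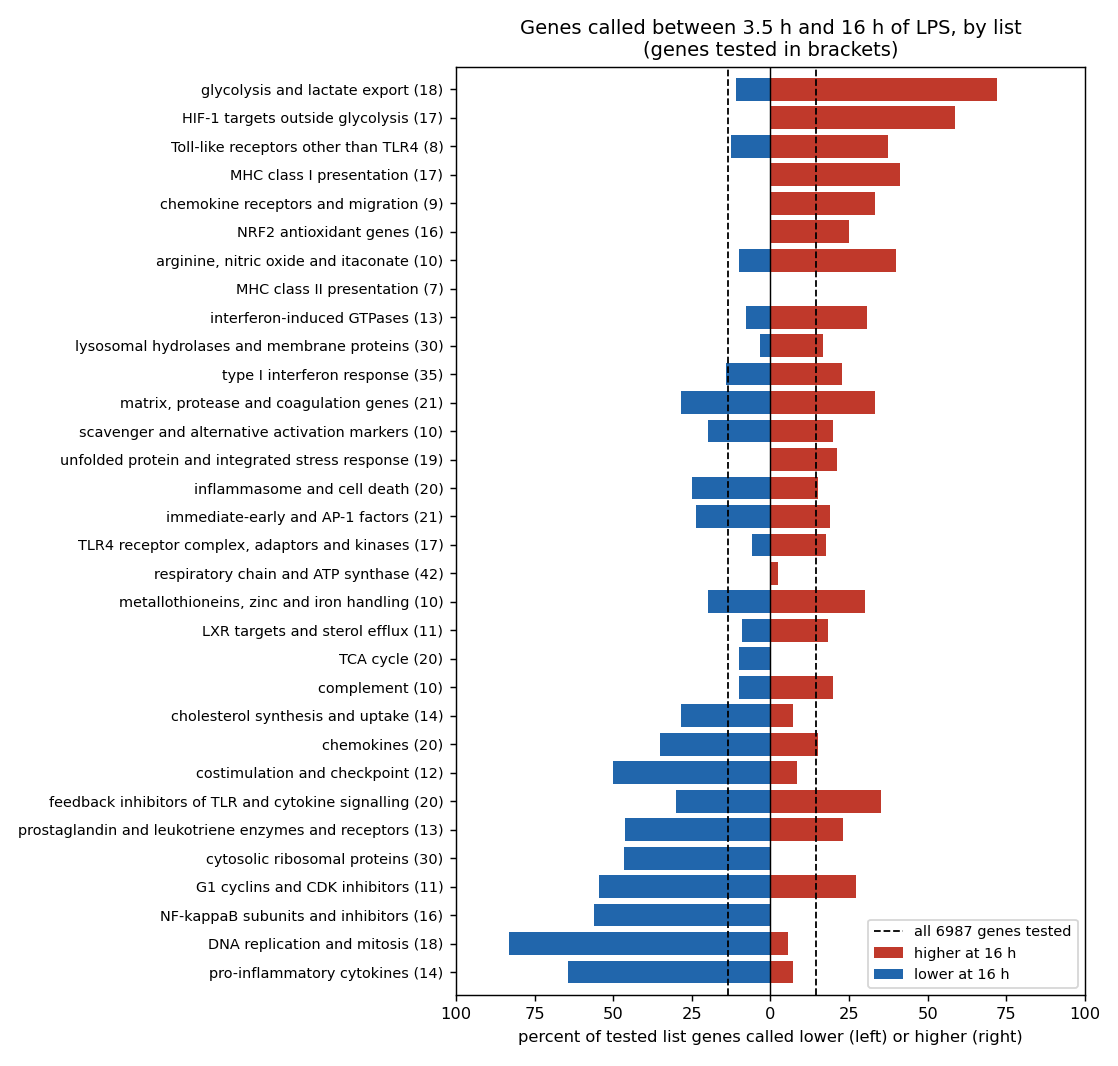
Percent of tested genes of each list that were called lower (left, blue) or higher (right, red) at 16 h than at 3.5 h of LPS, ordered by the median log2 fold change, with the number of genes tested in brackets; dashed lines mark the 13.5% and 14.6% of all genes tested. Glycolysis and HIF-1 targets hold the largest shares called higher, and DNA replication and mitosis the largest share called lower.

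Of 10 tested genes of metal handling 3, Lcn2, Slc11a1 and Slc40a1, were higher (30%) and 2, Slc39a14 and Tfrc, lower (20%). Without replicate 4 at 16 h, 3 were higher and 3 lower. Hmox1 and Fth1 are counted in the NRF2 list below and not in these numbers. Hmox1, which degrades heme, was at 529, 586, 575 and 579.6 CPM at 3.5 h and 6768, 7909.5, 7595 and 6913 CPM at 16 h. Hmox1 rose by 3.75 ± 0.10 on the log2 scale (adjusted p = 7.33e-08). All 16 h cultures of Hmox1 lay above all 3.5 h cultures, controls fell (1310.1 ± 150.4 CPM at 3.5 h and 601 ± 107 CPM at 16 h), and the difference of the time changes was 4.83 ± 0.17, adjusted p = 6.3e-12. Fth1, the ferritin heavy chain that stores iron, had the largest gain in CPM of any called gene and was at 17272, 16062, 20608 and 20622 CPM at 3.5 h and 40281, 52363, 42905 and 53627 CPM at 16 h. Fth1 rose by 1.41 ± 0.14 on the log2 scale (adjusted p = 2.88e-05). Tfrc, the receptor for iron uptake, fell from 70.9 ± 22.4 to 27.2 ± 3.8 CPM. Of 16 tested NRF2-dependent antioxidant genes 4 were higher (25%) and 0 lower: Hmox1, Fth1, G6pdx and Prdx1. Prdx1, a peroxidase, lost its call without replicate 2 at 3.5 h or replicate 4 at 16 h (log2 fold change of Prdx1 0.99 and 0.81, against 1.08), and Gclm gained one without the latter (1.05 against 0.94). G6pdx, the first enzyme of the pentose phosphate pathway, overlapped between the times and lost its call without replicate 3 at 16 h (log2 fold change of G6pdx 0.90, against 1.14). In the stress lists, Ddit3, which encodes the transcription factor CHOP, was at 15.5, 15, 12.8 and 13.2 CPM at 3.5 h and 125, 153, 117 and 150.2 CPM at 16 h. Ddit3 rose by 3.33 ± 0.15 on the log2 scale (adjusted p = 5.55e-07). Trib3, a target of CHOP, rose from 2.95 ± 0.648 to 30.7 ± 3.92 CPM, and Sesn2, a sensor of amino acids, from 5.92 ± 0.881 to 39.9 ± 6.03 CPM. The endoplasmic reticulum chaperone genes Hspa5 (-0.25) and Hsp90b1 (0.05) were not called, and of 19 genes tested 4 were higher (21.1%) and 0 lower.

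Cell cycle genes fell with LPS, while none of the list fell in controls. Of the 30 genes listed for DNA replication and mitosis, 18 passed the filter in the LPS cultures, and 15 of these were called lower (83.3%) and 1 higher (5.56%), at a median log2 fold change of -1.63. Without replicate 4 at 16 h 14 were lower, since Mcm6 was then at -0.95 against -1.08. Ccnb2, a cyclin of mitosis, was at 39.7, 36.7, 36.5 and 36.5 CPM at 3.5 h and 1.24, 0.775, 0.667 and 1.12 CPM at 16 h, with no overlap. Ccnb2 fell by 5.22 ± 0.24 on the log2 scale (adjusted p = 5.64e-07). Controls of Ccnb2 held 40.4 ± 4.06 CPM at 3.5 h and 45.2 ± 6.98 CPM at 16 h, and the difference of the time changes was -5.43 ± 0.24, adjusted p = 5.19e-11. Mki67, a marker of cycling cells, was at 104, 89, 94.7 and 59.4 CPM at 3.5 h and 5.19, 4.69, 7.36 and 3.85 CPM at 16 h. Mki67 fell by 3.98 ± 0.26 on the log2 scale (adjusted p = 3.1e-06). Top2a fell from 40.4 ± 6.09 to 1.96 ± 0.678 CPM, and Birc5 (survivin) from 45.7 ± 16.4 to 2.34 ± 1.07 CPM. Of the replication genes, Pcna, the sliding clamp of the DNA polymerases, fell from 948 ± 45.6 to 393 ± 88.9 CPM (log2 fold change -1.21 ± 0.16, adjusted p = 0.00022) and Mcm7, a helicase subunit, by 1.61 on the log2 scale. The one gene called higher was Tpx2, a factor of spindle assembly, which was at 29.7, 34.7, 33.1 and 30.1 CPM at 3.5 h and 131, 120.4, 106 and 61.4 CPM at 16 h. Tpx2 rose by 1.78 ± 0.22 on the log2 scale (adjusted p = 0.00012). It was not called in controls (45.1 ± 6.34 CPM at 3.5 h and 46.1 ± 9.48 CPM at 16 h). In controls 8 of 28 list genes were higher at 16 h and 0 lower, at a median of 0.80. The difference of the time changes, LPS minus control, was called lower for 25 of 28 genes and higher for 1, at a median of -2.76. Among cyclins of the G1 phase, Ccnd1 was at 16.1, 28.4, 16.1 and 20.9 CPM at 3.5 h and 145, 96.8, 164 and 41.2 CPM at 16 h. Ccnd1 rose by 2.51 ± 0.41 on the log2 scale (adjusted p = 0.000689). Ccnd3 rose from 25.5 ± 1.35 to 141 ± 9.27 CPM, while Ccnd2 fell from 100.3 ± 10.5 to 41.7 ± 5.57 CPM. Ccnd1 lay below all controls at 3.5 h (206 ± 81.1 CPM at 3.5 h and 70.4 ± 32 CPM at 16 h).

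Ribosomal protein genes were called lower in part. All 30 on the list were tested, 14 were called lower (46.7%) and 0 higher, and the median log2 fold change was -0.97. Without replicate 4 at 16 h, 23 were lower at a median of -1.20, and with each culture's length trend removed 16 were lower at a median of -1.02. Rpl3 was at 1085, 958, 1115 and 1215 CPM at 3.5 h and 334, 366, 313 and 457 CPM at 16 h (log2 fold change -1.50 ± 0.15, adjusted p = 2.72e-05). Rpl5 fell from 1089 ± 116 to 391 ± 55.6 CPM. Controls had 0 of 30 called in either direction, at a median of 0.11, and the difference of the time changes was called lower for 13 of 30. The elongation factor Eef1a1, among the 6 largest losses in CPM, was at 6178, 8002, 8098 and 8274 CPM at 3.5 h and 3576, 3424, 3733 and 2412 CPM at 16 h. Eef1a1 fell by 1.15 ± 0.15 on the log2 scale (adjusted p = 0.000197). Many of these genes share sequence with processed pseudogenes (28.8% of windows for Rpl3 and 23.4% for Rpl5), and how reads on shared sequence were assigned is not given.

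Lipid mediator genes changed at several steps. Ptges, which makes prostaglandin E2, was at 54.3, 53.5, 67.9 and 64.2 CPM at 3.5 h and 377, 426, 448 and 429.7 CPM at 16 h. Ptges rose by 2.88 ± 0.10 on the log2 scale (adjusted p = 1.9e-07). Ptgs2, the inducible cyclooxygenase upstream of it, was at 415, 410.4, 437 and 501 CPM at 3.5 h and 519, 403, 341 and 372 CPM at 16 h with overlap (log2 fold change -0.04 ± 0.15, adjusted p = 0.845). Ptgs1, the constitutive cyclooxygenase, fell from 19.5 ± 5.88 to 1.78 ± 0.414 CPM, and Pla2g4a, which frees arachidonic acid, rose from 34.6 ± 5.51 to 94.5 ± 6.29 CPM. Hpgd, which inactivates prostaglandins, was at 20.5, 21.4, 27.8 and 32.8 CPM at 3.5 h and 0.96, 1.55, 0.939 and 0.97 CPM at 16 h. Hpgd fell by 4.46 ± 0.23 on the log2 scale (adjusted p = 1.14e-06). Hpgd was at 23.9 ± 4.06 CPM at 3.5 h and 44.7 ± 12.8 CPM at 16 h in controls, and the difference of the time changes was -5.40 ± 0.32, adjusted p = 9.22e-10. Ltc4s, which makes leukotriene C4, was at 9.9, 7.33, 10.4 and 8.04 CPM at 3.5 h and 0.619, 1.1, 0.741 and 3.85 CPM at 16 h. Ltc4s fell by 2.43 ± 0.57 on the log2 scale (adjusted p = 0.00522). Replicate 4 was the highest of the 16 h cultures, and the log2 fold change without it was -3.37. Of 13 tested prostaglandin and leukotriene genes 6 were lower (46.2%) and 3 higher (23.1%). In sterol metabolism, Nr1h3, the gene of the receptor LXR alpha, rose from 28.4 ± 2.14 to 131 ± 12.1 CPM (log2 fold change 2.27 ± 0.10, adjusted p = 4.96e-07) and its target Abcg1, a cholesterol exporter, from 38.5 ± 3.95 to 117 ± 11 CPM, while Ch25h, which makes 25-hydroxycholesterol, fell from 199 ± 47.3 to 34.9 ± 4.25 CPM (log2 fold change -2.43 ± 0.18, adjusted p = 6.06e-06). The other tested LXR targets, among them Abca1, Mylip, Srebf1, Apoe and Lpl, were not called. Of 11 tested LXR and sterol efflux genes 2 were higher (18.2%) and 1 lower (9.09%), at a median log2 fold change of -0.05. Without replicate 4 at 16 h, 2 were higher and 2 lower.

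Transcription factor genes of the immediate-early class were split. Of 21 tested, 5 were lower (23.8%) and 4, Klf4, Btg2, Nr4a1 and Nr4a2, higher (19%), with 6 lower and 4 higher without replicate 4 at 16 h. The count of higher genes was 0 without replicate 1 at 16 h, and 2 with library size as the scaling, with all 28 cultures in one fit and with the length trend removed. Controls had 7 of 21 tested genes of this list lower and 1 higher, at a median of -0.85. The difference of the time changes, LPS minus control, was called higher for 5 of 22 and lower for 0, at a median of 0.65. Egr1 and Junb, typical first-wave factors, fell from 19.5 ± 5.03 to 4.02 ± 1.18 CPM and from 1715 ± 194 to 654 ± 78.3 CPM, and both fell in controls too (-2.89 and -1.99). The NR4A nuclear receptors did not move as one: Nr4a3 fell from 77.2 ± 11.9 to 8.43 ± 4.54 CPM, while Nr4a2 rose from 2.66 ± 0.41 to 15.8 ± 3.05 CPM and Nr4a1 from 4.48 ± 0.706 to 14.1 ± 4.91 CPM. Nr4a1 and Nr4a2 did not pass the expression filter without replicate 1 at 16 h. Nr4a1 fell in controls, from 40.1 ± 12.9 to 9.71 ± 3.21 CPM, and the difference of the time changes was 3.73 ± 0.41, adjusted p = 1.17e-06. Of 20 tested genes of inflammasomes and cell death 3 were higher (15%) and 5 lower (25%), with 4 and 4 without replicate 4 at 16 h. Bcl2l11, which encodes the death-promoting protein BIM, fell from 95.4 ± 13.8 to 27.5 ± 1.77 CPM, and Pmaip1, which encodes NOXA of the same class, was at 6.45, 4.9, 5.95 and 5.29 CPM at 3.5 h and 43.1, 42.9, 31 and 41.2 CPM at 16 h. Pmaip1 rose by 2.87 ± 0.17 on the log2 scale (adjusted p = 1.88e-06). Nlrc4, an inflammasome sensor of flagellin, rose from 5.66 ± 1.1 to 28 ± 6.04 CPM. Nlrp3, the sensor of the best known inflammasome, was at 137, 237, 194 and 175 CPM at 3.5 h and 120.4, 86.2, 109.7 and 35.9 CPM at 16 h. Nlrp3 fell by 1.01 ± 0.34 on the log2 scale (adjusted p = 0.0283). That call was at the threshold and was lost without replicate 2, 3 or 4 at 3.5 h and without replicate 2 or 4 at 16 h, with -0.75 in the last case. In the lysosome, 5 of 30 genes were higher (16.7%) and 1 lower (3.33%): Neu1, a sialidase, rose from 78.1 ± 3.46 to 301 ± 35.6 CPM and the protease gene Ctsc from 571 ± 67.7 to 1473 ± 266 CPM, and Hexa, a subunit of hexosaminidase, fell from 1756 ± 191 to 758 ± 188 CPM.

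Genes of coagulation and matrix moved both ways. F3, tissue factor, which starts coagulation, was at 45.7, 51.8, 54.5 and 63.6 CPM at 3.5 h and 3.33, 1.45, 0.519 and 1.14 CPM at 16 h. F3 fell by 4.97 ± 0.50 on the log2 scale (adjusted p = 3.66e-05). Without replicate 1 at 16 h the log2 fold change of F3 was -5.64. Plaur, the receptor of urokinase, fell from 610.1 ± 64 to 111 ± 11.7 CPM. F10, coagulation factor X, rose from 91.1 ± 31.9 to 449 ± 38.4 CPM (log2 fold change 2.38 ± 0.22, adjusted p = 2.28e-05). Procr, the receptor of protein C, was at 38.5, 51, 52 and 52.4 CPM at 3.5 h and 428, 434, 427 and 291 CPM at 16 h. Procr rose by 3.09 ± 0.16 on the log2 scale (adjusted p = 9.91e-07). Mmp13, a collagenase, fell from 3386 ± 429.8 to 720.3 ± 106 CPM, and Thbs1, thrombospondin 1, rose from 255 ± 143 to 930.0 ± 287 CPM. Spp1, osteopontin, rose from 2589.8 ± 375 to 15501 ± 3737 CPM (log2 fold change 2.65 ± 0.22, adjusted p = 1.33e-05) and rose in controls (3330.5 ± 292 CPM at 3.5 h and 28106 ± 3984 CPM at 16 h, log2 fold change 3.13), with a difference of the time changes of -0.48 ± 0.25, adjusted p = 0.131. Of 21 tested genes of this list 7 were higher (33.3%) and 6 lower (28.6%), with 7 and 5 without replicate 4 at 16 h.

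Surface receptors moved both ways. Mrc1, the mannose receptor and a marker of alternative activation, was at 548, 572, 604 and 517 CPM at 3.5 h and 22.6, 20.9, 23.3 and 18.1 CPM at 16 h. Mrc1 fell by 4.66 ± 0.12 on the log2 scale (adjusted p = 7.33e-08). It also fell by 1.41 in controls, with a difference of -3.24 ± 0.17, adjusted p = 3.23e-10. Clec10a, another lectin of the same kind, fell from 24.5 ± 4.79 to 1.62 ± 0.477 CPM. Marco, a scavenger receptor for bacteria, was at 16.9, 11.7, 19.2 and 23.7 CPM at 3.5 h and 188, 335, 474 and 549 CPM at 16 h. Marco rose by 4.50 ± 0.37 on the log2 scale (adjusted p = 1.05e-05). It was not called in controls (6.16 ± 1.38 CPM at 3.5 h and 6.06 ± 1.24 CPM at 16 h). Of 10 tested scavenger and alternative activation genes 2, Marco and Arg1, were higher (20%) and 2, Mrc1 and Clec10a, lower (20%). Their median log2 fold change was 0.13, and without replicate 4 at 16 h 3 were higher and 2 lower. The formyl peptide receptor genes Fpr1 and Fpr2 rose from 7.96 ± 1.62 to 199 ± 23.5 CPM and from 41.8 ± 9.99 to 298 ± 25.3 CPM respectively (log2 fold change 4.72 ± 0.16, adjusted p = 1.9e-07 for Fpr1). Ccr7, the receptor that guides cells to lymph nodes, rose from 0.365 ± 0.215 to 9.03 ± 1.93 CPM, and Fcgr1, the high affinity receptor of IgG, from 540.0 ± 100.4 to 2278 ± 244 CPM.

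The 15 largest increases and decreases among called genes without overlap and with at least 10 CPM at one of the times included genes outside these lists. Gpr35, an orphan receptor of the gut and of myeloid cells, was at 0.281, 0.625, 0.303 and 0.366 CPM at 3.5 h and 123, 99.1, 89.9 and 60.4 CPM at 16 h. Gpr35 rose by 7.92 ± 0.35 on the log2 scale (adjusted p = 5.55e-07). It also rose in controls (2.66), with a difference of 5.28 ± 0.56, adjusted p = 7.5e-07. Cd300lf, an inhibitory receptor of myeloid cells, was at 1.68, 1.71, 1.24 and 1.74 CPM at 3.5 h and 140.0, 128, 99 and 71.4 CPM at 16 h. Cd300lf rose by 6.16 ± 0.28 on the log2 scale (adjusted p = 5.59e-07). Clic5 rose from 0.853 ± 0.165 to 43.7 ± 15.8 CPM and Il12rb1, a subunit of the interleukin-12 receptor, from 0.411 ± 0.134 to 17.3 ± 3.7 CPM. The gene models Gm32089 and Gm47336 (lincRNA), Gm15056 and C130050O18Rik (protein coding) and A930007I19Rik (antisense) rose by 9.27, 6.80, 6.53, 5.81 and 5.18 on the log2 scale. Gm32089, Gm47336, Gm15056 and Gstt4 (7.69) held 7, 14, 22 and 11 counts over the 4 cultures at 3.5 h. The value of Gstt4 was 8.38 without replicate 1 at 3.5 h. The remaining increases were Napepld (5.32) and Narf (5.20). Among the decreases, Gprc5c, a receptor of unknown ligand, was at 28.6, 41.4, 43 and 42 CPM at 3.5 h and 0.555, 0.736, 0.593 and 0.622 CPM at 16 h. Gprc5c fell by 5.87 ± 0.18 on the log2 scale (adjusted p = 1.18e-07). Olr1, the receptor of oxidised LDL, fell from 195 ± 25.1 to 3.85 ± 0.464 CPM, and it fell in controls as well (-3.41). Rnd1 and Rnd3, small GTPases, fell from 518 ± 107 to 11.2 ± 0.558 CPM and from 263 ± 35.6 to 6.67 ± 1.77 CPM. Il33, an alarmin, fell from 22.3 ± 5.07 to 0.737 ± 0.181 CPM and had 0 counts in all 10 control cultures. Tspan33, Adamts4, Sult1a1, Slc9a9, Snn and Ube2c had log2 fold changes of -5.50, -5.05, -5.04, -4.88, -4.85 and -4.76. Without replicate 1 at 16 h the log2 fold change of Adamts4 was -5.73. In CPM the largest losses besides Cxcl10, Ccl4, Ifit1 and Eef1a1 were those of Sdc4, a syndecan of the cell surface, from 7660.5 ± 823 to 366 ± 145 CPM, and of Tnfaip2, from 4556 ± 539 to 325 ± 76 CPM.

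Set against controls of the same time, the called genes lay as follows. Of the 941 genes lower at 16 h, 502 (53.3%) had LPS cultures all above the controls at 3.5 h, against 32.8% of all tested genes, and 65 (6.91%) had them all below, against 19.9%. At 16 h 189 of these genes (20.1%) still had LPS cultures all above the controls, against 30.1% of all tested genes, and 413 (43.9%) all below, against 15.8%. Of the 1023 genes higher at 16 h, 447 (43.7%) had LPS cultures all below the controls at 3.5 h and 255 (24.9%) all above, while at 16 h 608 (59.4%) were all above and 39 (3.81%) all below. These shares describe the called genes and carry no test, since the calls use the same LPS cultures. Tnf, Il6 and Cxcl10 are examples of genes that fell and were still above controls at 16 h, and Mrc1, Ccnb2 and Hpgd of genes that fell to below controls. Narf, at 0.944, 1.37, 1.51 and 1.1 CPM at 3.5 h and 47.5, 46.5, 46.9 and 32.8 CPM at 16 h with LPS and 10.7 ± 2.17 CPM at 3.5 h and 16.2 ± 3.39 CPM at 16 h in controls, was first below controls and then above.

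The change over time under LPS was compared with that in controls by the difference of the time changes, fitted over the 18 cultures. It was called higher, that is more upward or less downward with LPS, for 1177 of 8748 genes (13.5%) and lower for 1124 (12.8%). Because LPS and control cultures are separate, calls can also be set side by side. Of all 6572 genes tested in both, 202 were higher and 313 lower at 16 h in controls. Among these genes, 76 of 855 higher with LPS were also higher in controls (8.89%, and 37.6% of the 202 genes higher in controls). Likewise 124 of 847 genes lower with LPS were also lower in controls (14.6%, and 39.6% of 313). Opposite calls were made for 50 and 39 genes. The largest differences upward with at least 10 CPM in 1 group were those of Arg1 (9.18 ± 0.79, adjusted p = 6.93e-08), Gm32089 (7.73), Cd300lf (7.44 ± 0.30, adjusted p = 1.59e-11), Clic5 (6.76), Gm15056 (6.67) and Kdr (6.54 ± 0.36, adjusted p = 4.57e-10). Kdr, a receptor of VEGF, was at 2.93, 5.5, 3.28 and 5.34 CPM at 3.5 h and 65, 59.8, 53.1 and 41.2 CPM at 16 h, and controls held 6.96 ± 2.05 CPM at 3.5 h and 0.975 ± 0.203 CPM at 16 h. Gm15056 had 2 counts in the controls of either time, so that its value depends on the prior count and gives no bound. The largest differences downward were those of Gprc5c (-6.00 ± 0.28, adjusted p = 8e-11), Ube2c (-5.59), Ccna2 (-5.57), Slco2b1 (-5.50), Ccnb2 and Hpgd. Ube2c, Ccna2 and Ccnb2 act in the cell cycle, and Ccna2 held 36.5 ± 6.5 CPM at 3.5 h and 65.1 ± 18 CPM at 16 h in controls against 16.6 ± 4.83 and 0.622 ± 0.364 CPM with LPS. Slco2b1, a transporter of organic anions, was under the expression filter of the LPS cultures alone.

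**Figure D5:**
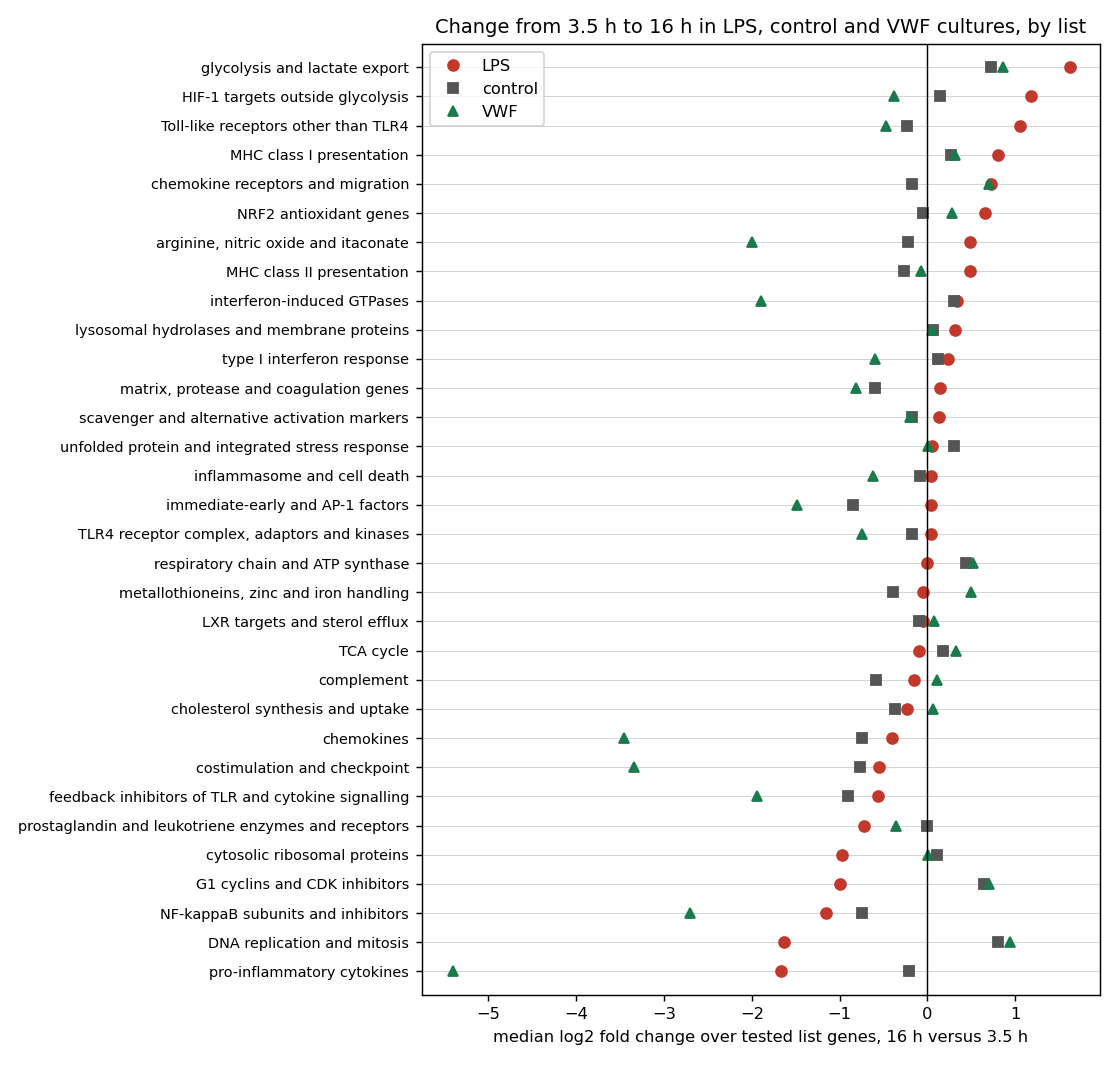
Median log2 fold change from 3.5 h to 16 h over the tested genes of each list in LPS (red circles), control (grey squares) and pd-VWF cultures (green triangles); the tested genes differ between the 3 series because each has its own expression filter. LPS and pd-VWF lie furthest apart for cytokines and chemokines, and LPS and control for DNA replication and mitosis.

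The cultures with pd-VWF give another course over the same times, with Tnf at 2616 ± 258 CPM at 3.5 h and 50.9 ± 1.63 CPM at 16 h. In them 725 of 7927 genes were higher at 16 h (9.15%) and 969 lower (12.2%), and the difference of the time changes, LPS minus pd-VWF, was called higher for 1173 of 8217 genes (14.3%) and lower for 879 (10.7%). With library size in place of TMM scaling that split was 893 higher and 1176 lower. Of all 6697 genes tested in both, 492 were higher and 835 lower at 16 h with pd-VWF. Among these genes, 268 of 885 higher with LPS were higher with pd-VWF (30.3%, and 54.5% of 492). Likewise 378 of 893 lower with LPS were lower with pd-VWF (42.3%, and 45.3% of 835), with opposite calls for 43 and 24. Of 14 tested cytokine genes 12 were lower with pd-VWF, at a median of -5.41 against -1.67 with LPS, and the difference of the time changes was called higher for 11 of 14 and lower for 0. Nos2 had the largest difference (11.45 ± 0.52, adjusted p = 5.82e-11). With pd-VWF it went from 51.6 ± 9.78 to 0.277 ± 0.17 CPM while it rose with LPS. Flrt3 (8.80), Hcar2 (7.87), the receptor of niacin and butyrate, Lipg (7.31), endothelial lipase, Gstt4 (7.67) and Clic5 (6.59) followed. Hcar2 was not called with LPS, at 22.7, 41.8, 45.2 and 58.9 CPM at 3.5 h and 72.9, 58.6, 45.7 and 24.4 CPM at 16 h, and went from 50.2 ± 12.5 to 0.266 ± 0.126 CPM with pd-VWF. The largest differences downward were all in genes of replication or mitosis or of DNA repair: Cdc6 (-5.64), Pclaf (-5.01), Ccna2 (-4.86), Fignl1 (-4.80), Pbk (-4.80) and Ung (-4.76). Cdc6, which loads the replicative helicase, went from 1.05 ± 0.367 to 21.7 ± 2.01 CPM with pd-VWF and from 3.71 ± 1.12 to 1.51 ± 0.339 CPM with LPS.

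Motif matches in annotated promoters were counted on both strands, and matches of different motifs could overlap. Of the 1023 genes higher at 16 h, 789 had a RefSeq window, of the 941 lower 699, and of the 6987 tested 5396. The NF-kB consensus was found in 9.87% of windows of genes lower at 16 h, in 8.11% of genes higher, in 6.45% of tested genes and in 5.14% of all 27025 genes with a window. The ISRE core was found in 10.7%, 11.7%, 9.88% and 9.76%, the AP-1 site in 8.58%, 7.1%, 6.65% and 8.97%, the GAS element (TTCNNNGAA) in 9.87%, 8.24%, 8.02% and 9.55%, and the cAMP response element (TGACGTCA) in 2.43%, 3.04%, 3.6% and 2.03% of these sets in the same order. These shares are descriptions of letters in a fixed window. Ccl4, Nos2 and Arg1 were not matched to a window.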

How the data were processed

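Total RNA of mouse BMDM cultures was sequenced in paired reads, and the authors mapped the reads to GRCm38 (mm10) and deposited raw read counts per Ensembl gene from STAR for 28 cultures. The annotation release, the strand setting and the treatment of reads with several hits were not given in the sources used here. Of 54532 genes, 30159 had a count. The table was read without change, and cultures were grouped by their labels.

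Counts were tested with edgeR 4.0.16 in R 4.3.3 (quasi-likelihood with robust dispersion, TMM factors) for LPS 16 h against 3.5 h within the 8 LPS cultures, for the same times in control and pd-VWF cultures, and for the differences of these time changes. A gene was tested where at least 1 compared culture reached 10 TPM, with exon lengths from the GRCm38 annotation, and was called at a Benjamini-Hochberg adjusted p under 0.05 and an absolute log2 fold change above 1. Fold changes of genes with few counts at 1 time depend on edgeR's prior count. DESeq2 1.42.0, other scalings, other filters, a replicate term, all 28 cultures in one fit, a test against a fold of 2 and each culture left out were alternatives, and removal of each culture's length trend was added after seeing the data. Code was tested on simulated counts. No pair of LPS cultures of the same time agreed within sampling noise, and other pairs were not compared in this way. The comparison, gene lists and alternatives were chosen with earlier results of these data known. Named genes were list members, the 15 largest called changes in either direction without overlap and with 10 CPM at the higher time, the 6 largest gains and losses in CPM, the 6 largest differences in either direction against control and pd-VWF, and the 10 highest genes per LPS time; the members printed from each list were picked as examples. Sequence windows shared between genes were counted over exonic sequence of GRCm38. Promoter windows came from RefSeq on GRCm38.p6. Intervals from counting are not given, since the spread between cultures is larger. A few items of the marker and gene lists are not reported here.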

Additional observations from a re-analysis of the deposited data

Results flagged for a closer look

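Among the named genes, single cultures were tested in 374 groups of 4, and 26 had 1 culture far from the other 3, with its gap to the nearest as a share of the group's range given in brackets (Dixon's ratio, past its critical value at the 95% level). Chance flags about 1 in 20 such groups. Replicate 4 at 16 h of LPS was the highest for Ccl17 (0.908), Fignl1 (0.875), Ifit1 (0.854), Ltc4s (0.85) and Ube2c (0.93). Replicate 4 at 16 h of LPS was the lowest for Narf (0.93), Procr (0.951) and Tlr4 (0.935). Replicate 1 at 16 h of LPS was the highest for Cxcl1 (0.854). Replicate 1 at 16 h of LPS was the lowest for A930007I19Rik (0.853) and Slc9a9 (0.88). Replicate 2 at 16 h of LPS was the highest for Hpgd (0.949). Replicate 3 at 16 h of LPS was the lowest for Gm47336 (0.967), Plaur (0.843) and Pmaip1 (0.846). Replicate 1 at 3.5 h of LPS was the highest for Ccnb2 (0.939) and Pbk (0.898). Replicate 1 at 3.5 h of LPS was the lowest for Eef1a1 (0.87), Gprc5c (0.89), H2-K1 (0.878), Ifit2 (0.861), Procr (0.899) and Snn (0.84). Replicate 2 at 3.5 h of LPS was the lowest for Sdc4 (0.83). Replicate 3 at 3.5 h of LPS was the lowest for Cd300lf (0.881) and Slc16a1 (0.877). Replicate 4 at 16 h, whose values ran with gene length, held 8 of these, and replicate 1 at 3.5 h also held 8.

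The change from 3.5 h to 16 h differed between LPS and control cultures in a test of the difference itself (edgeR's quasi-likelihood test) for 1177 genes upward and 1124 downward. The largest log2 differences, LPS minus control, were those of Arg1 (9.18), Gm32089 (7.73), Cd300lf (7.44), Clic5 (6.76), Gm15056 (6.67) and Kdr (6.54), and downward those of Gprc5c (-6.00), Ube2c (-5.59), Ccna2 (-5.57), Slco2b1 (-5.50), Ccnb2 (-5.43) and Hpgd (-5.40). Against pd-VWF the counts were 1173 upward and 879 downward. The largest log2 differences, LPS minus pd-VWF, were those of Nos2 (11.45), Flrt3 (8.80), Hcar2 (7.87), Gstt4 (7.67), Lipg (7.31) and Clic5 (6.59), and downward those of Cdc6 (-5.64), Pclaf (-5.01), Ccna2 (-4.86), Fignl1 (-4.80), Pbk (-4.80) and Ung (-4.76). Cdc6, Fignl1, Ung and Slco2b1 were under the expression filter in the LPS cultures alone, so that their change with LPS has no test of its own.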

How the results depend on the processing

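For LPS 16 h versus LPS 3.5 h, 1964 genes were called. The count was 4116 with edgeR's filterByExpr in place of the TPM minimum (2183 higher, 1933 lower), 4298 with no filter (2331 and 1967), 1164 in a test against a fold of 2 (598 and 566), and 4257 with no fold threshold (2222 and 2035). Control 16 h versus control 3.5 h gave 757 calls, against 1570 with filterByExpr, 1524 with no filter and 3429 with no fold threshold. VWF 16 h versus VWF 3.5 h gave 1694, against 3458, 3974 and 5379. Difference of the time change, LPS minus control, gave 2301, against 3790, 3613 and 4267. Difference of the time change, LPS minus VWF, gave 2052, against 3576, 3528 and 4329. These settings test more genes or set another threshold. With 1 culture left out, the LPS count ranged from 1900 to 2098 (976 to 1057 higher, 900 to 1041 lower), control from 616 to 832, pd-VWF from 1600 to 1735, and the differences from 2104 to 2683 and from 1890 to 2408. Of the LPS calls, 1551 were made in every fit that left out 1 LPS culture. The median of all genes lay between -0.0302 and 0.0887 on the log2 scale under all settings, and the share of calls higher between 47.2% and 54.2%. Called genes that are named kept their direction in every setting run.

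Between the LPS times, same-numbered cultures had correlations of their deviations from the group means of -0.424, 0.168, 0.207 and 0.126 for replicates 1 to 4. These values cannot tell whether equal numbers mark the same mouse, since deviations of the cultures also ran with gene length. A fit with the replicate block called 1960 genes (990 higher, 970 lower), of which 1917 were called in the same direction without it. Of the 16 h cultures, 1 of 4 correlated best with its own number at 3.5 h. Between LPS and pd-VWF at 16 h all 4 same-numbered pairs were positive (0.417, 0.189, 0.795 and 0.768), and all 4 LPS cultures correlated best with their own number. The other pairs of groups in that comparison were mixed, except LPS at 3.5 h with pd-VWF at 16 h (0.103 to 0.289). The block gave 2075 calls for LPS minus pd-VWF (2052 without it), 2261 for LPS minus control, 696 for control and 1692 for pd-VWF.

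Depth limits genes with few counts at 1 time, such as Arg1 with 20 counts over the 4 cultures at 3.5 h. Ccna2, Ccr7, Il12rb1, Mcm7, Nr4a1 and Nr4a2 were no longer tested in 1 fit each because leaving out a culture put them under the filter.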
